A study of Mus musculus with 6 samples.

Results

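The Cyp2 family comprises the cytochrome P450 enzymes of family 2, and its members were taken here as the protein-coding genes whose mouse symbol is Cyp2 followed by a subfamily letter and a number. This rule found 48 genes among the 41388 gene identifiers of the count table. It used names only and no measured value, but the family was chosen with earlier results of these data known. Chromosomes 7 and 19 held 15 members each, and chromosomes 15 and 4 held 8 each. Livers of BALB/c mice, made fibrotic with the hepatotoxic solvent carbon tetrachloride (CCl4) over 5 weeks, were profiled by bulk RNA sequencing. One group of 3 libraries, called AL/NP (labelled high), came from mice that also received nanoparticulate alendronate, a bisphosphonate drug that is taken up by phagocytes, at 4 mg/kg in 2 injections per week during the last 2 weeks. The other group of 3 libraries came from CCl4 mice labelled untreated and is called control. The protocol text of these samples describes the same alendronate injections, so the grouping follows their titles and treatment tag, which give them as untreated fibrotic controls. Both groups carried CCl4 fibrosis, and neither a healthy liver nor a group given empty particles was analysed here. The labels do not state that replicates are separate animals, so the p-values measure the spread between these libraries, which may be partly technical.

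Cytochrome P450 enzymes are haem proteins of the endoplasmic reticulum that insert 1 oxygen atom into a substrate with electrons passed on by P450 reductase (Por) and, for some reactions, cytochrome b5 (Cyb5a). Family 2 is a large P450 family in the mouse, with many near-copies that arose by local gene duplication, and hepatocytes express most of its liver forms. Its members oxidise drugs, solvents, steroids, fatty acids and arachidonic acid. Cyp2e1 turns CCl4 into the radical that injures the hepatocyte. Several Cyp2b and Cyp2c genes are targets of the nuclear receptors CAR (Nr1i3) and PXR (Nr1i2), and some Cyp2 genes differ between male and female mice.

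The Cyp2a4 and Cyp2a5 messages show how alike some members are, and they were among the members with the largest differences between the groups. Cyp2a4 hydroxylates testosterone, and Cyp2a5 hydroxylates coumarin and oxidises nicotine. Their coding sequences of 1482 bases differed at 23 bases, an identity of 98.4%. The stretch from coding base 580 to 669, counted from the start codon, is shown because it holds 5 of those differences close together, and a change in this region is known to set the substrate preference. The 90 bases follow 5′ to 3′ from the GRCm38 transcripts, with the differing bases in capitals.
Cyp2a4: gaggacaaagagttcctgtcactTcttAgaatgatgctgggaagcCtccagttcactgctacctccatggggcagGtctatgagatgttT
Cyp2a5: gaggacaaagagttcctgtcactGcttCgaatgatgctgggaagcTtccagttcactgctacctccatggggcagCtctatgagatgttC

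Other members were also close. Cyp2c40 was 98.1% identical to Cyp2c68, 97.9% to Cyp2c69 and 97.7% to Cyp2c67, and Cyp2a12 was 97.0% identical to Cyp2a22. Cyp2c37 and Cyp2c50 shared 96.1%, Cyp2d10 and Cyp2d11 94.7%, and Cyp2b9 and Cyp2b13 92.7%. Between subfamilies identity was much lower, at 62.6% for Cyp2a4 and Cyp2e1 and 67.1% for Cyp2e1 and Cyp2c29. The libraries were read in pairs of 50 bases, and 15 of the 48 members shared at least 20% of their 50-base stretches with another gene. That share was 60.3% for Cyp2c40, 54.3% for Cyp2c69, 52.8% for Cyp2c67, 43.3% for Cyp2c68 and 38.8% for Cyp2a4, but 3.91% for Cyp2e1 and 0% for Cyp2c70, Cyp2c23, Cyp2j9 and Cyp2r1. How the authors' counting treated reads that match several genes is not given in the sources used here, so the split of reads within each close group is uncertain.

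The promoters of several members shared a short string that resembles the binding motif of HNF4A, the nuclear receptor that supports hepatocyte gene expression. RefSeq promoter windows on GRCm38.p6, which run from 250 bases before to 50 bases after a transcription start, were found for 40 of the 48 members (42 windows). The letters CAAAGTCC, searched on both strands and chosen after the sequences had been seen, were in 9 of the 42 windows (21.4%) and in 467 of all 32851 windows (1.42%). They were found at Cyp2a4, Cyp2a5, Cyp2c40, Cyp2c65, Cyp2c66, Cyp2c67, Cyp2c68, Cyp2c69 and Cyp2c70. Several of these are near-copies of each other, so their windows are not independent and the share among members counts copies more than once. The 80 bases around the string are shown 5′ to 3′ on the gene's strand for 6 members that were tested below, with the string in capitals. The Cyp2c69 bases, at chr19:39886801-39886880 on the minus strand, were identical to those of Cyp2c40.
Cyp2a4 (chr7:26307101-26307180, plus strand): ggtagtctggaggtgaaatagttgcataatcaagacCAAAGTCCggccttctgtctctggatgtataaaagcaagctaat
Cyp2a5 (chr7:26835247-26835326, plus strand): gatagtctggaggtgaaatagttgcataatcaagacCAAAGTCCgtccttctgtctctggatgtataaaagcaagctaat
Cyp2c40 (chr19:39812816-39812895, minus strand): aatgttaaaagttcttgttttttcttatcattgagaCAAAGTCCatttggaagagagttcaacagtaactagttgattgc
Cyp2c67 (chr19:39649124-39649203, minus strand): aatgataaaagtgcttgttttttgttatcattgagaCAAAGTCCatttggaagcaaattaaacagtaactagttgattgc
Cyp2c68 (chr19:39741135-39741214, minus strand): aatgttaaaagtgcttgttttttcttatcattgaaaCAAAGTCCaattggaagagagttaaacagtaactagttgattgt
Cyp2c70 (chr19:40187307-40187386, minus strand): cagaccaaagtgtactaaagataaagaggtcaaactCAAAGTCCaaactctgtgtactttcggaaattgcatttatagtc

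The string began 55 bases before the RefSeq start at Cyp2a4, 56 at Cyp2a5, 45 at Cyp2c40, 125 at Cyp2c67, 77 at Cyp2c68, 75 at Cyp2c69 and 64 at Cyp2c70. A TATA box (TATAAA) was in 21 of the 42 windows (50.0%) against 13.6% of all windows. A C/EBP-type string (TTGCNNAA) was in 13 windows (31.0%) against 10.8% of all windows. The STAT5-type string TTCNNNGAA was in 2 windows (4.76%) against 8.30%. Each match describes letters in the window and does not show that a factor bound there.

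Library totals lay between 30554483 and 39838428 counts. Members took 0.326%, 0.369% and 0.366% of all counts in the AL/NP libraries, and 0.454%, 0.411% and 0.324% in the controls. Control replicate 3 stood apart, with 26.7% of its counts in mitochondrially encoded genes against at most 19.8% in the other libraries, and with the lowest scaling factor (0.809 against 0.937 to 1.13). Values below are therefore library-scaled counts (CPM) after trimmed mean of M-values (TMM) scaling, which sets the bulk of genes level between libraries. Of the 48 members, 37 had enough counts to be tested. The 11 that did not were Cyp2b19, Cyp2b23, Cyp2c65, Cyp2c66, Cyp2g1, Cyp2j7, Cyp2j11, Cyp2j12, Cyp2j13, Cyp2t4 and Cyp2w1. Cyp2g1, an olfactory form, had 46 counts over all 6 libraries, Cyp2c65 had 12, Cyp2j7 had none, and the rest had at most 5. The sources used here give no sex. Xist, the X-inactivation RNA of female cells, was at 194 to 1141 CPM, and the Y-linked genes Ddx3y, Uty, Kdm5d and Eif2s3y did not exceed 0.144 CPM.

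Levels of different genes were compared as CPM per kilobase of exon. Over the 6 libraries, Cyp2d26 was the most abundant member at 336 CPM per kilobase, followed by Cyp2d10 at 252, Cyp2a4 at 228, Cyp2c29 at 114, Cyp2a12 at 108 and Cyp2f2 at 107. Cyp2c70 at 76.2 and Cyp2a5 at 76.1 were level with each other, as were Cyp2a12 and Cyp2f2. Cyp2e1, the enzyme that activates CCl4, was 21st of the 48 members at 13.4 CPM per kilobase. In healthy liver Cyp2e1 is known as an abundant P450 message, but no healthy liver was measured here to set this level against.

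**Figure D1:**
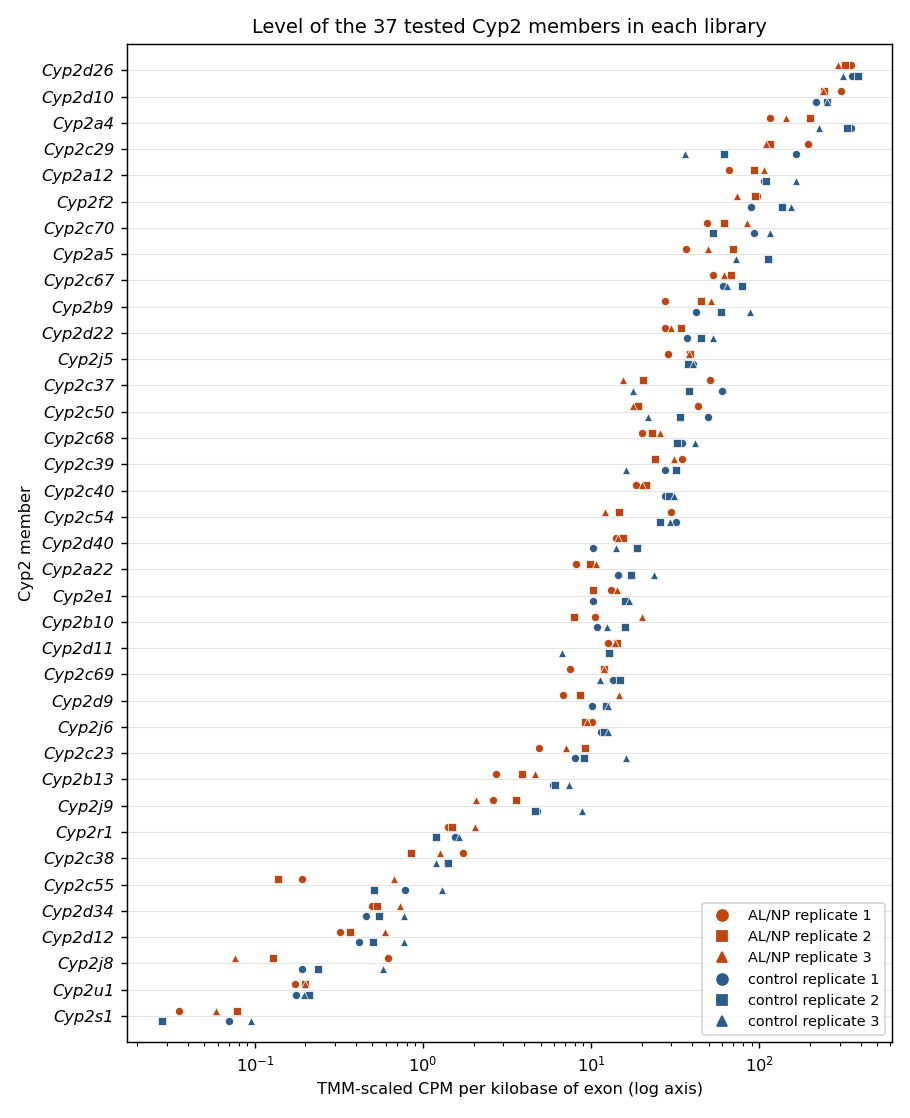
Level of the 37 tested Cyp2 members in each of the 6 libraries, as TMM-scaled CPM per kilobase of exon on a log axis, with AL/NP in orange and control in blue and 1 symbol shape per replicate number. Cyp2d26 leads with a mean of 336 CPM per kilobase, and the members span several orders of magnitude down to Cyp2s1.

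The comparison of AL/NP with control asks how the family's messages differed after treatment with nanoparticulate alendronate. No member passed the edgeR quasi-likelihood test at an adjusted p under 0.05, where 0.0816% of the 15939 genes tested did (13 genes, with 10 or 0.0627% higher and 3 or 0.0188% lower with AL/NP). The family nevertheless lay mostly below control. The fitted log2 fold change (AL/NP over control) was negative for 31 of 37 members (83.8%), against 50.0% of all genes tested, and its median was −0.35 against −0.000249 over all genes. An unadjusted edgeR p under 0.05 with a lower level was reached by 10 members (27.0%) against 10.3% of all genes. No member had one with a higher level, against 9.37% of all genes. The 10 members were Cyp2a4, Cyp2a5, Cyp2a22, Cyp2b13, Cyp2c40, Cyp2c68, Cyp2d22, Cyp2f2, Cyp2j6 and Cyp2j9. Groups did not overlap for 10 members, all lower with AL/NP (27.0%, against 15.0% of all genes). These were the same members except that Cyp2a12 took the place of Cyp2f2, and no member was higher without overlap, against 14.5% of all genes. DESeq2 called 7 members lower at an adjusted p under 0.05 (18.9%, against 2.83% of all genes lower) and none higher, against 2.79%. They were Cyp2a22 (DESeq2 adjusted p = 0.0031), Cyp2a4 (0.00932), Cyp2c40 (0.0142), Cyp2j9 (0.0143), Cyp2c68 (0.0156), Cyp2a5 (0.0271) and Cyp2b13 (0.0318). Cyp2a4 and Cyp2a5 are near-copies, as are Cyp2c40 and Cyp2c68, so the member counts in this paragraph are not counts of independent genes. With near-identical members summed, 25 of 30 entries were lower with edgeR, and DESeq2 was not run on the sums. In whole tissue, fewer cells of a type and less RNA per cell cannot be told apart.

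**Figure D2:**
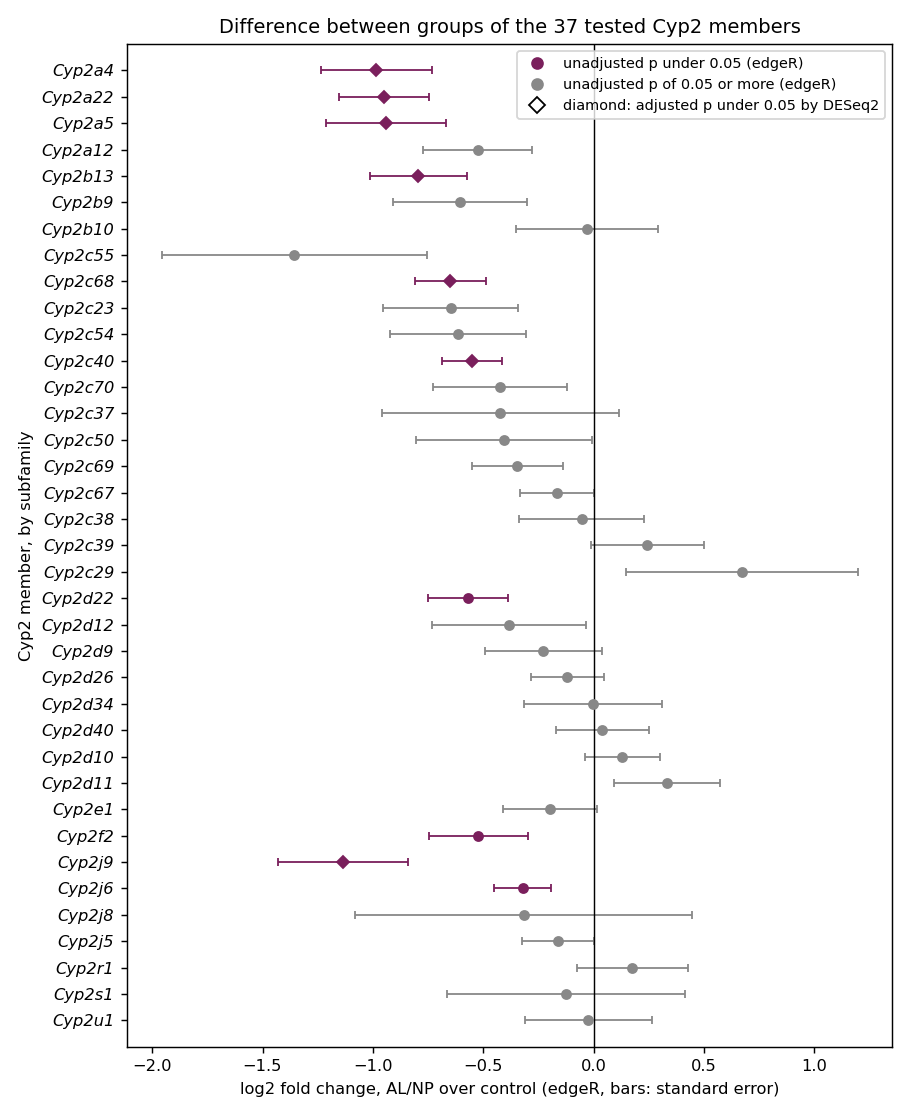
Fitted log2 fold change (AL/NP over control, edgeR) of the 37 tested Cyp2 members with its standard error as bars. Purple marks the 10 members with an unadjusted p under 0.05 and diamonds the 7 that DESeq2 called, and all of these lie left of 0.

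Summed over the 48 members, the family stood at 3478, 3377 and 3244 CPM in the AL/NP libraries and at 4266, 4098 and 4006 CPM in the controls. The groups did not overlap, and the mean of 3366 ± 117 (SD, n = 3) was 0.816 of the control mean of 4123 ± 132. This separation depended on the TMM scaling. As shares of all counts the groups overlapped, with control replicate 3 at 0.324% and the AL/NP libraries at 0.326% to 0.369%. Within single libraries, the median difference of a member from its control mean on the log2(CPM + 0.5) scale was −0.35, −0.41 and −0.21 in AL/NP replicates 1, 2 and 3. It was −0.08, −0.01 and 0.09 in control replicates 1, 2 and 3. Without control replicate 3, 28 of 37 members had a negative fold change, the median was −0.21, and 9 members reached an unadjusted edgeR p under 0.05. The share of all genes under that p was not taken in this fit. Members with the CAAAGTCC string shown above were all on the lower side. All 7 tested had a negative fold change, from −0.98 to −0.17, with a median of −0.55. Of the 24 tested members with a window but without the string, 18 had a negative fold change, with a median of −0.21. Cyp2c40, Cyp2c67, Cyp2c68 and Cyp2c69 are near-copies, as are Cyp2a4 and Cyp2a5, so these members are not independent, and the difference was not tested.

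**Figure D3:**
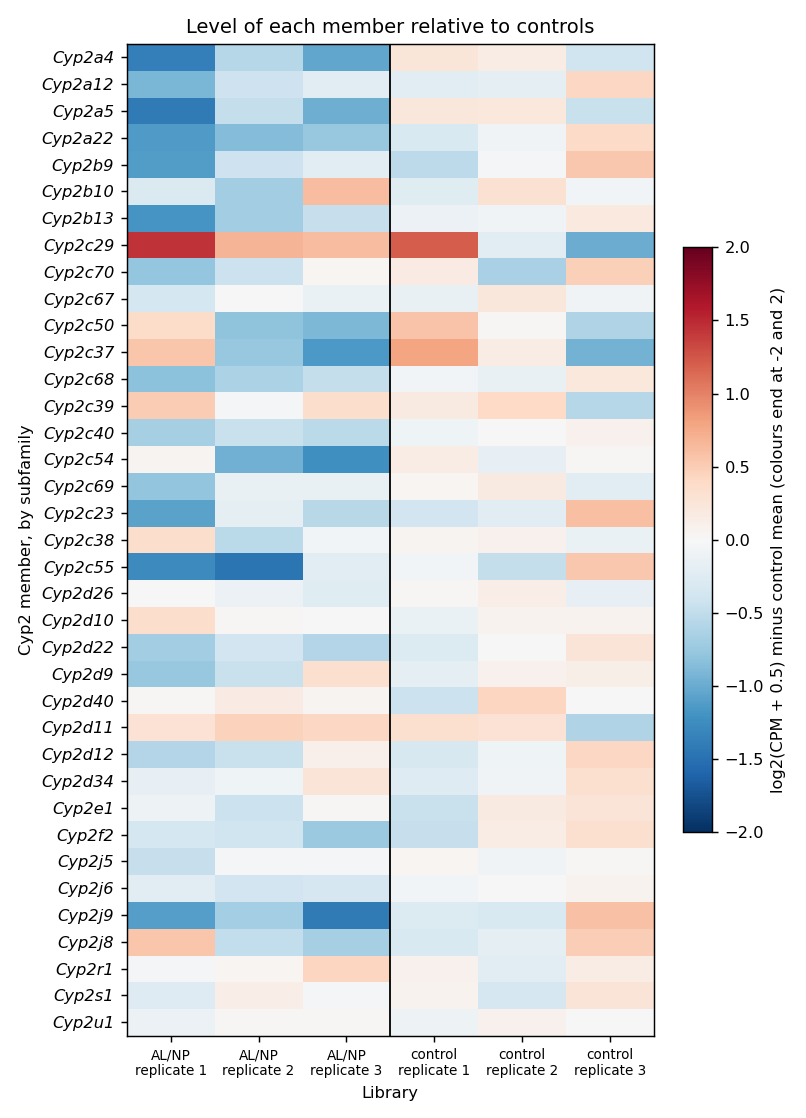
Level of each tested Cyp2 member in each library relative to its mean in the controls, as a difference on the log2(CPM + 0.5) scale, blue below and red above, ordered by subfamily. The Cyp2a rows are blue in all 3 AL/NP libraries, while Cyp2c29 is red in all 3 AL/NP libraries and in control replicate 1.

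The Cyp2a subfamily, steroid and coumarin hydroxylases encoded in 1 cluster on chromosome 7, had the lowest median log2 fold change of the subfamilies with several tested members, at −0.95 over 4 members. It summed to 530, 849 and 756 CPM with AL/NP and to 1265, 1245 and 1198 CPM in the controls, with no overlap and a ratio of means of 0.576. Cyp2a thus made up 30.0% of the family's CPM in the controls and held 69.3% of the difference in the family sum. Cyp2a4 (chr7:26307169-26315088) stood at 199.6, 348 and 249.8 CPM with AL/NP and at 609, 575 and 393 CPM in the controls. The 3 AL/NP libraries all lay below the lowest control. The log2 fold change was −0.98 (SE 0.252, edgeR adjusted p = 0.133). Cyp2a5 (chr7:26835305-26843548) followed the same order of libraries, at 75.8, 145 and 103 CPM against 238, 235 and 149.7 CPM. Its log2 fold change was −0.94 (SE 0.271, adjusted p = 0.147), and AL/NP replicate 2 came close to control replicate 3 without reaching it. Counted together to remove the uncertain split, Cyp2a4 and Cyp2a5 stood at 275, 493 and 353 CPM against 847, 809 and 543 CPM, with a log2 fold change of −0.97 (SE 0.261, adjusted p = 0.144).

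Cyp2a22 had the smallest p of the family. It stood at 28.0, 33.7 and 36.7 CPM with AL/NP and at 50.03, 59.02 and 81.1 CPM in the controls, a log2 fold change of −0.95 (SE 0.205, edgeR adjusted p = 0.108). Its near-copy Cyp2a12, a steroid hydroxylase, stood at 227, 323 and 366 CPM against 368, 377 and 574 CPM. The groups again did not overlap, but AL/NP replicate 3 and control replicate 1 were nearly level, and the log2 fold change was −0.53 (SE 0.245, adjusted p = 0.272). Summed, the pair had a log2 fold change of −0.57 (SE 0.242, adjusted p = 0.242).

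**Figure D4:**
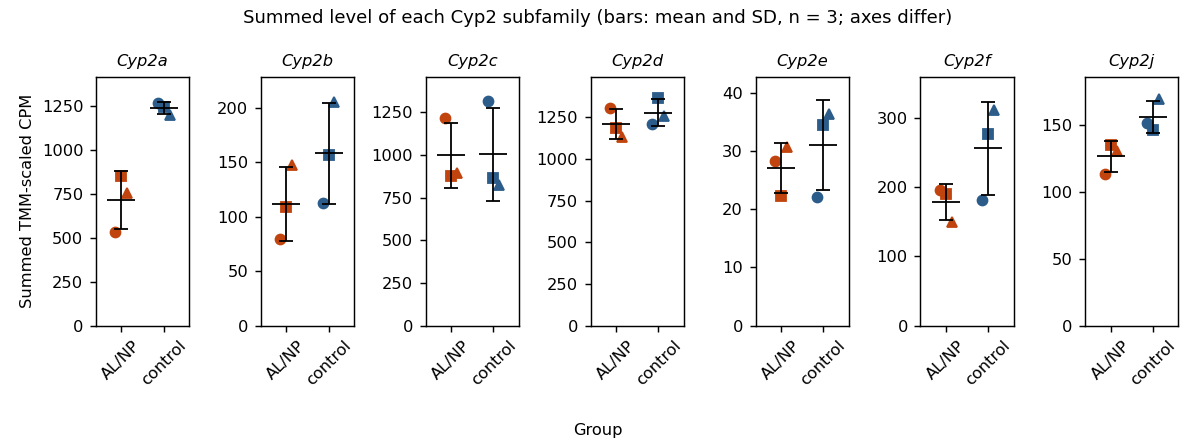
Summed TMM-scaled CPM of the 7 larger Cyp2 subfamilies in each library, with the mean and SD of 3 libraries per group and separate axes. Cyp2a and Cyp2j show no overlap between the groups, with Cyp2a at 530 to 849 CPM with AL/NP and 1198 to 1265 CPM in the controls.

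The Cyp2b genes encode the phenobarbital-inducible P450 enzymes, the classical targets of CAR. Cyp2b9 and Cyp2b13 are forms typical of female mouse liver, and Cyp2b10 is the form most used as a readout of CAR activity. Cyp2b13 stood at 5.07, 7.24 and 8.67 CPM against 11.1, 11.5 and 13.9 CPM in the controls. The groups did not overlap, and the log2 fold change was −0.79 (SE 0.218, edgeR adjusted p = 0.144). Cyp2b9 stood at 51.8, 84.7 and 96.3 CPM against 78.8, 111 and 164 CPM. Here the groups overlapped, since control replicate 1 was below 2 of the 3 AL/NP libraries, and the log2 fold change was −0.60 (SE 0.304, adjusted p = 0.296). Cyp2b10 averaged 27.1 ± 13.5 CPM with AL/NP and 27.6 ± 5.51 CPM in the controls (SD, n = 3), nearly equal means with a log2 fold change of −0.03 (SE 0.321), and its sign depended on which library was left out (−0.51 to 0.22).

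The Cyp2c subfamily, which oxidises arachidonic acid, retinoids and many drugs, had nearly equal sums in the groups. It stood at 1219, 879 and 895 CPM with AL/NP and at 1320, 868 and 824 CPM in the controls, a ratio of means of 0.994. This sum combined members in both directions. Of its 15 members 13 were tested, and 11 of these had a negative fold change, with a median of −0.42, and Cyp2c29, its most abundant member, had the most positive one. Cyp2c29 stood at 596, 352 and 337 CPM with AL/NP and at 507, 189 and 111 CPM in the controls. Replicate 1 was highest in both groups and the groups overlapped. The log2 fold change of 0.67 (SE 0.525, edgeR adjusted p = 0.486) moved between 0.30 and 1.52 when single libraries were left out.

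Cyp2c40, an arachidonic acid hydroxylase, and Cyp2c68, 2 female-biased genes of 1 cluster on chromosome 19, had the tightest differences in the subfamily. Cyp2c40 stood at 37.4, 43.2 and 40.9 CPM with AL/NP and at 56.2, 59.0 and 63.1 CPM in the controls. The log2 fold change was −0.55 (SE 0.136, edgeR adjusted p = 0.126), and the means of 40.5 ± 2.92 and 59.4 ± 3.48 CPM (SD, n = 3) lay several SDs apart. Cyp2c68 stood at 34.8, 39.5 and 44.2 CPM against 59.6, 55.5 and 71.1 CPM, also with no overlap, a log2 fold change of −0.65 (SE 0.161, adjusted p = 0.126). Their near-copies differed less. Cyp2c67, the most abundant of the 4, stood at 91.3, 117 and 106 CPM against 105.6, 137 and 111 CPM, overlapping groups with a log2 fold change of −0.17 (SE 0.169, adjusted p = 0.595). Cyp2c69 averaged 17.8 ± 4.30 against 22.6 ± 3.06 CPM, with a log2 fold change of −0.35 (SE 0.205). Whether the 4 genes differ among themselves was not tested, and with so many shared reads it rests on the authors' counting. Summed, they stood at 176, 221 and 211 CPM against 244, 277 and 265 CPM, with no overlap and a log2 fold change of −0.37 (SE 0.157, adjusted p = 0.244).

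A second group on chromosome 19, Cyp2c37, Cyp2c50 and Cyp2c54, consists of epoxygenases and hydroxylases of arachidonic acid that CAR and PXR activators induce. Cyp2c50 stood at 125, 55.1 and 51.8 CPM with AL/NP and at 144.5, 98.9 and 63.8 CPM in the controls, a log2 fold change of −0.41 (SE 0.398, edgeR adjusted p = 0.582). As for Cyp2c29, replicate 1 was the highest library in each group. Cyp2c37 had the same order, from 28.2 to 92.9 CPM with AL/NP and from 32.5 to 109.6 CPM in the controls, and its log2 fold change of −0.42 (SE 0.537) ranged from −1.11 to 0.04 when single libraries were left out. Cyp2c54 averaged 33.7 ± 17.1 against 51.6 ± 5.73 CPM (SD, n = 3), with a log2 fold change of −0.62 (SE 0.309). Cyp2c70, which makes the muricholic acids of mouse bile, stood at 96.1, 123 and 168 CPM against 184, 105 and 229.7 CPM. Control replicate 2 lay within the AL/NP range, and the log2 fold change was −0.42 (SE 0.303, adjusted p = 0.444). Cyp2c39, a retinoic acid hydroxylase, was on the other side at 63.0, 43.4 and 56.5 CPM against 50.1, 58.1 and 29.4 CPM, overlapping groups with a log2 fold change of 0.24 (adjusted p = 0.607). Cyp2c23, an arachidonic acid epoxygenase best known from kidney, and Cyp2c55, best known from gut, had log2 fold changes of −0.65 (SE 0.306) and −1.36 (SE 0.601). Cyp2c55 did not exceed 2.58 CPM in any library. Cyp2c38 had a log2 fold change of −0.05 (SE 0.284) and stayed below 5 CPM.

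The Cyp2d genes on chromosome 15, relatives of the human drug-oxidising enzyme CYP2D6, were the largest subfamily in the controls with 31.0% of the family's CPM. They summed to 1307, 1188 and 1129 CPM with AL/NP and to 1208, 1368 and 1256 CPM in the controls, overlapping groups with a ratio of means of 0.946. Of the 8 members 5 had a negative fold change and the median was −0.06. Cyp2d26, the most abundant member of the family, stood at 628, 578 and 528 CPM against 634, 688 and 560.0 CPM, a log2 fold change of −0.12 (SE 0.166, edgeR adjusted p = 0.711). Cyp2d10 stood at 506, 400.4 and 394 CPM against 360.1, 415 and 413 CPM, a log2 fold change of 0.13 (SE 0.170, adjusted p = 0.686). The groups overlapped for both of these abundant genes, and neither difference exceeded the spread between libraries. Cyp2d22, often described as the mouse counterpart of CYP2D6, was the exception in the subfamily. It stood at 107, 133 and 116 CPM against 144.5, 175 and 208 CPM, with no overlap and a log2 fold change of −0.57 (SE 0.180, adjusted p = 0.171).

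The other Cyp2d members were less abundant. Cyp2d11, whose reads may be shared with Cyp2d10, stood at 20.1, 22.8 and 22.0 CPM against 20.6, 20.2 and 10.7 CPM. Only control replicate 3 stood below the rest, and the log2 fold change was 0.33 (SE 0.239, edgeR adjusted p = 0.445). Cyp2d9, a male-biased testosterone hydroxylase, had overlapping groups with means of 26.5 and 31.1 CPM and a log2 fold change of −0.23. Cyp2d40 stood at 25.3, 28.1 and 26.0 CPM against 18.4, 33.7 and 25.2 CPM, a log2 fold change of 0.04. Cyp2d12 and Cyp2d34 stayed below 3 CPM, with log2 fold changes of −0.38 and −0.00.

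Cyp2e1 (chr7:140763739-140774987) had overlapping levels in the groups. It was represented by 770 to 1246 counts per library and stood at 28.2, 22.2 and 30.6 CPM with AL/NP and at 22.1, 34.4 and 36.3 CPM in the controls. AL/NP replicate 2 and control replicate 1 were the lowest libraries and nearly equal. The means were 27.0 ± 4.31 and 30.9 ± 7.71 CPM (SD, n = 3), and the log2 fold change was −0.20 (SE 0.214, edgeR adjusted p = 0.620). It lay between −0.39 and −0.07 when single libraries were left out. A difference in the message of the CCl4-activating enzyme was therefore not detected with 3 libraries per group, which does not show that the levels were equal.

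Cyp2f2 oxidises naphthalene and is a classical marker of periportal hepatocytes, whereas Cyp2e1 marks the pericentral ones. It stood at 197, 189.6 and 149 CPM with AL/NP and at 181, 277 and 312 CPM in the controls. Control replicate 1 lay within the AL/NP range, and the other two controls were above it. The log2 fold change was −0.52 (SE 0.224, edgeR adjusted p = 0.246).

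The Cyp2j genes on chromosome 4 encode epoxygenases that make epoxyeicosatrienoic acids from arachidonic acid. Of the 8 members 4 were tested, and all 4 had a negative fold change, with a median of −0.32. Their sum of 113, 135 and 131 CPM with AL/NP lay below the 152, 147 and 169 CPM of the controls without overlap. Cyp2j9 stood at 8.72, 11.9 and 6.91 CPM against 15.8, 15.5 and 29.3 CPM, a log2 fold change of −1.14 (SE 0.294, edgeR adjusted p = 0.135). Control replicate 3 was the highest, and leaving out single libraries gave between −1.37 and −0.77. Cyp2j6 averaged 34.5 ± 1.85 against 43.2 ± 1.87 CPM (SD, n = 3), a small but non-overlapping difference with a log2 fold change of −0.32 (SE 0.130, adjusted p = 0.228). Cyp2j5, the most abundant of the 4 and highest in liver and kidney, averaged 82.3 ± 13.3 against 92.1 ± 3.64 CPM, overlapping groups with a log2 fold change of −0.16. Cyp2j8 stayed below 1 CPM.

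Single-gene subfamilies with conserved roles had levels that overlapped between the groups. Cyp2r1, the 25-hydroxylase that starts vitamin D activation, stood at 2.99, 3.16 and 4.29 CPM with AL/NP and at 3.27, 2.54 and 3.45 CPM in the controls, a log2 fold change of 0.18 (SE 0.2498, edgeR adjusted p = 0.715). Cyp2u1, a fatty acid hydroxylase, averaged 0.998 ± 0.0817 against 1.02 ± 0.0932 CPM (SD, n = 3). Cyp2s1, an extrahepatic form, stayed below 0.5 CPM.

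The redox partners that microsomal P450 enzymes depend on had fold changes in both directions. Of 17 genes for electron transfer and haem supply, none passed the edgeR test, 11 had a positive and 6 a negative fold change, and the median was 0.15. Their summed level was slightly lower with AL/NP without overlap, at 2536 to 2632 CPM against 2654 to 2756 CPM. Por, the reductase, stood at 189, 173 and 168 CPM with AL/NP and at 133, 125 and 114 CPM in the controls, higher without overlap, with a log2 fold change of 0.51 (edgeR adjusted p = 0.147). Alas1, the rate-limiting enzyme of haem synthesis, had a log2 fold change of 0.60 (adjusted p = 0.183), with AL/NP replicate 3 at the level of control replicate 3. Cyb5a, cytochrome b5, was on the lower side at 358, 436 and 481 CPM against 722, 731 and 678 CPM, a log2 fold change of −0.74 (adjusted p = 0.121). DESeq2 called Por higher (adjusted p = 0.0285) and Cyb5a lower (0.00133).

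Xenobiotic receptors, listed together with partner genes that are not receptors, had mostly negative fold changes, and none passed the edgeR test. Of 16 tested xenobiotic receptors and partners, 12 had a negative fold change with a median of −0.43. Without overlap 9 were lower, against 15.0% of all genes, and 2 were higher, against 14.5%. Nr1i3, encoding CAR, stood at 16.8, 34.0 and 65.8 CPM with AL/NP and at 151, 124 and 111 CPM in the controls. All AL/NP libraries were below the lowest control, and the log2 fold change was −1.73 (SE 0.430, edgeR adjusted p = 0.133, DESeq2 adjusted p = 0.00122). Nr1i2, encoding PXR, stood at 37.1, 33.1 and 36.7 CPM against 42.1, 39.4 and 79.7 CPM, a log2 fold change of −0.59 (edgeR adjusted p = 0.254). Ppara, the fatty acid receptor, and Nr0b2, the bile acid-induced repressor SHP, had log2 fold changes of −0.75 (adjusted p = 0.147) and −1.03 (adjusted p = 0.166). Hnf4a overlapped between the groups at 246, 383 and 328 CPM against 459.6, 388 and 349 CPM, with a log2 fold change of −0.32 (adjusted p = 0.391), and the 16 hepatocyte transcription factors had a median of −0.11. The 25 tested targets of CAR and PXR outside the family were divided, 12 higher and 13 lower with a median of −0.10. The 3 with the smallest p among them were all lower, namely Abcc4, an efflux pump (−1.24, adjusted p = 0.0579), Sult1d1, a sulfotransferase (−0.79, adjusted p = 0.0981), and Gstm2, a glutathione transferase (−0.99, adjusted p = 0.121).

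**Figure D5:**
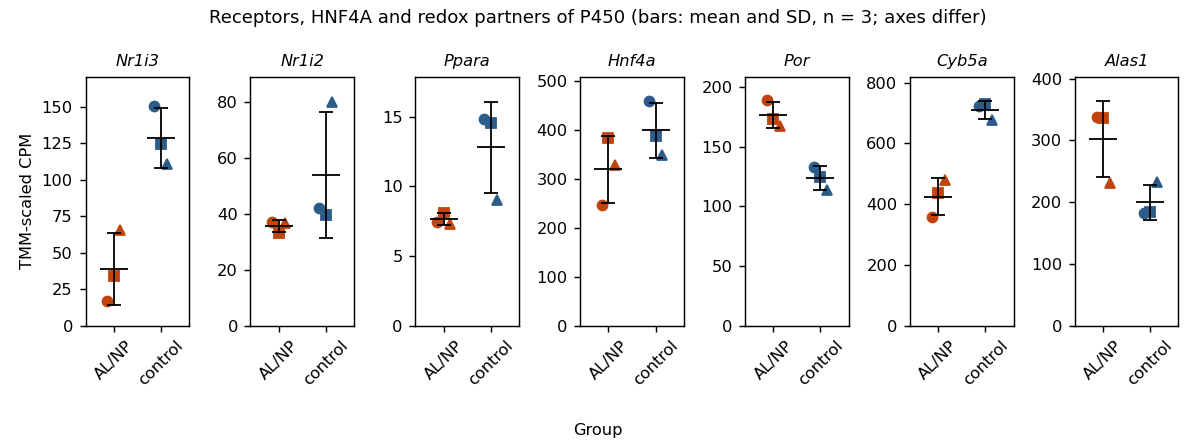
TMM-scaled CPM of the receptors Nr1i3, Nr1i2 and Ppara, of Hnf4a, and of Por, Cyb5a and Alas1 in each library, with the mean and SD of 3 libraries per group and separate axes. Nr1i3 at 16.8 to 65.8 CPM and Cyb5a at 358 to 481 CPM lie below all controls, while Por at 168 to 189 CPM lies above them.

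Acute phase genes and markers of other cell types were measured in the same libraries. Of 29 tested acute phase genes, made by hepatocytes in inflammation, 27 had a positive fold change with a median of 0.975. The edgeR test called 4 of them, all higher, against 0.0627% of all genes. Saa1, serum amyloid A, rose from 63.8, 55.4 and 34.8 CPM in the controls to 353, 1096 and 1279 CPM with AL/NP (log2 fold change 4.15, edgeR adjusted p = 0.0493), and Saa3 and Orm3 passed it at 3.29 and 1.57. Of 17 tested cytokine and signal genes 13 had a positive fold change with a median of 0.40, led by Il1b (1.56, adjusted p = 0.0839), Osmr (0.84) and Osm (2.38). All 12 macrophage markers had a positive fold change, led by Mpeg1 (1.20), Laptm5 (1.44) and Lyz2 (1.61). They summed to 475 to 875 CPM with AL/NP and to 229 to 394 CPM in the controls. The 12 neutrophil markers, of which 8 were tested and had positive fold changes, summed to 36.2 to 82.7 against 19.7 to 35.9 CPM. The 7 Kupffer cell markers overlapped in sum, at 77.2 to 119 against 52.3 to 81.6 CPM, with 5 higher and 2 lower. Without overlap 2 were higher, Cd5l and Marco (0.96), against 14.5% of all genes, and 1 was lower, Cd163 (−1.28), against 15.0%. Marco barely separated, at 5.14 CPM in AL/NP replicate 3 and 5.03 CPM in control replicate 1. Cd5l led the list, at 39.1, 38.9 and 56.8 CPM with AL/NP and at 17.8, 17.6 and 20.7 CPM in the controls. No gene of the cell marker lists passed the edgeR test. The defining hepatocyte markers Alb, Ttr, Apoa1, Trf, Serpinc1 and F2 were divided, 3 higher and 3 lower. Their sum, mostly albumin, was 49413 to 57087 CPM with AL/NP and 59756 to 77914 CPM in the controls, without overlap. The ratio of means was 0.823, with control replicate 3 highest and the other controls at 59788 and 59756 CPM. The Cyp2 family sum had a ratio of 0.816, and that of CYP1, CYP3 and CYP4 enzymes 0.832, both also without overlap. The sum of the 20 general hepatocyte genes had 0.889, with overlap. Whether the family sum differed more than these sums was not tested. Stellate cell markers (375 to 793 against 410 to 950 CPM), endothelial markers (280 to 354 against 275 to 348 CPM), cholangiocyte markers (454 to 877 against 429 to 605 CPM) and T, NK and B cell markers (6.76 to 23.0 against 5.89 to 10.5 CPM) overlapped between the groups. Of 12 proliferation markers 11 had a negative fold change, and their sum of 59.8 to 79.9 CPM lay below the 89.1 to 99.6 CPM of the controls. No marker of the cell type and proliferation lists was at or under 3 counts over the 6 libraries. The part of these shifts in the Cyp2 values was not tested.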

How the data were processed

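Bulk RNA sequencing of liver gave 6 libraries, 3 AL/NP and 3 control, grouped by the sample titles. The authors deposited raw read counts for each Ensembl gene, made with GRCm38, STAR 2.6.1a, featureCounts and DESeq2 1.26.0, per the submitters' processing notes. The kit marked strand, per the labels' protocols. The strand setting, annotation release and treatment of reads with several matches are not given in the sources used here, so overlapping or near-identical genes may share reads. Symbols were found for 40254 of 41388 identifiers.

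The groups were compared with edgeR 4.0.16 in R 4.3.3 (quasi-likelihood test, TMM scaling, filterByExpr with a minimum count of 10, robust), which tested 15939 genes, with Benjamini-Hochberg adjustment over all of them and a threshold of 0.05. Each SE is the size of a fitted log2 fold change over the root of its F. The script was tested on simulated data. Alternatives were DESeq2 1.42.0, limma 3.58.1 (voom), other scalings and filters, a replicate block, no robust estimation, mitochondrially encoded genes left out, and each library left out. At these depths 3 counts equal 0.0753 to 0.0982 CPM of a library's total, which covers counting error only. Lengths, coding sequences and coordinates came from GENCODE M21 on GRCm38, and promoter windows from RefSeq on GRCm38.p6. No 2 libraries were near-duplicates (lowest chi-square per degree of freedom 30.6).

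The members and the 25 gene lists were chosen with earlier results of these data known. Every library's value is given for Cyp2e1, the 12 members of highest CPM and, in each direction, the 6 of smallest p with a mean of at least 1 CPM. Genes named from the lists are among the 3 tested genes of smallest p in each, or were set by name. The values of some genes that this rule chose are not reported here.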

Additional observations from a re-analysis of the deposited data

How the results depend on the processing

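Precision is limited by 3 libraries per group. The count of genes called was 13 with edgeR as described, 0 with library totals as the only scaling, 0 with at least 50 counts in 3 libraries, 0 without robust estimation, 8 with limma-voom, 747 with no filter beyond 1 count, 896 with DESeq2, and 0 to 4 when single libraries were left out. Members called numbered 0 in these fits except 6 of 47 with no filter beyond 1 count and 7 of 37 with DESeq2, all lower. Those fits tested 29551 and 15939 genes in turn. Members with an unadjusted p under 0.05 numbered 10, but 6 with library totals only, and 9 to 13 with single libraries left out. For the alternative fits the share of all genes under that p was not taken, so these member counts have no background beside them. The median log2 fold change of the members was −0.345, and −0.189 with library totals only, where the median of all genes moved to 0.133 and 26 of 37 members were lower. It was −0.439 to −0.209 with single libraries left out, the weakest without control replicate 3. Deviations of same-numbered libraries correlated at −0.0420, 0.0207 and 0.0871, within the −0.164 to 0.124 of differently numbered ones. Pairing by replicate number was thus not seen, but 3 libraries per group cannot settle whether it existed. With the replicate block 23 genes and 0 members were called, 14 members had an unadjusted p under 0.05 (13 of them lower), and the median was −0.390. Summing near-identical members, an alternative chosen after seeing the data, gave 30 entries, of which 25 were lower and 8 had an unadjusted p under 0.05, with a median of −0.319. Some fold changes changed sign. With library totals only they were 0.124 for Cyp2b10, 0.0466 for Cyp2c38, 0.178 for Cyp2d34, 0.0511 for Cyp2s1 and 0.120 for Cyp2u1. For Cyp2d34 they were 0.00106 with DESeq2 size factors, 0.00124 with no filter beyond 1 count, 0.00625 with the replicate block, 0.0222 with limma-voom and 0.00224 with DESeq2. With single libraries left out, Cyp2b10 ranged from −0.509 to 0.223, Cyp2c37 from −1.113 to 0.042, Cyp2c38 from −0.329 to 0.170, Cyp2d34 from −0.188 to 0.231, Cyp2d40 from −0.155 to 0.272, Cyp2j8 from −1.670 to 0.305, Cyp2r1 from −0.0039 to 0.273, Cyp2s1 from −0.502 to 0.251 and Cyp2u1 from −0.092 to 0.040. Apart from the constructions named, the cause was not tested.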

Other observations

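Of 24 tested CYP1, CYP3 and CYP4 enzymes, 11 had a positive and 13 a negative log2 fold change (AL/NP over control), with a median of −0.17, and none passed the edgeR test. An unadjusted edgeR p under 0.05 was reached by 6, all lower, against 10.3% of all genes lower and 9.37% higher. DESeq2 called 4 lower, against 2.83% of all genes, and 0 higher, against 2.79%. The sum of these enzymes, 1381 to 1514 CPM with AL/NP, lay below the 1565 to 1912 CPM of the controls. The 3 with the smallest p were lower without overlap. Cyp3a25, a steroid and drug hydroxylase, stood at 74.6, 95.5 and 82.0 CPM with AL/NP and at 161, 196 and 322 CPM in the controls (log2 fold change −1.43, edgeR adjusted p = 0.0903). Cyp3a59 had a log2 fold change of −1.94 (adjusted p = 0.105) and Cyp4a32, a fatty acid hydroxylase, one of −0.67 (adjusted p = 0.126). Cyp1a2, a target of the aryl hydrocarbon receptor, stood at 14.8, 24.8 and 19.2 CPM against 46.8, 13.4 and 62.8 CPM, overlapping groups with a log2 fold change of −1.06 (adjusted p = 0.279).

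Hepatocyte genes of both liver zones had fold changes in both directions. Of 26 periportal genes 17 had a negative fold change with a median of −0.45, led by Hsd17b6, a retinol and steroid dehydrogenase, at 56.5, 38.5 and 46.9 CPM against 114, 168 and 231 CPM (−1.86, edgeR adjusted p = 0.062). Ctsc, a lysosomal protease, was on the higher side at 0.92 and Hal, histidine ammonia-lyase, on the lower at −0.77. Of these periportal genes 8 were lower at an unadjusted edgeR p under 0.05, against 10.3% of all genes, and 2 higher, against 9.37%. Without overlap 8 were lower, against 15.0%, and 3 higher, against 14.5%. DESeq2 called 5 lower, against 2.83%, and 2 higher, against 2.79%. Of 23 tested pericentral genes 14 had a negative fold change with a median of −0.09, led by Rgn, a calcium-binding lactonase (−1.08), Csad of taurine synthesis (0.53) and Ldhd (0.50). Glul, glutamine synthetase, had 0.29. The 20 general hepatocyte genes had a median of 0.14, with Ttr at −0.82, Ambp at 0.52, F2 at 0.54 and Alb at −0.23.

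Of 11 genes of growth hormone signalling and sex-biased regulation 9 had a negative fold change with a median of −0.31. Cux2, a female-biased repressor, stood at 1.70, 1.05 and 1.31 CPM against 2.27, 2.84 and 10.9 CPM (−1.98, edgeR adjusted p = 0.158), and Ghr and Socs2 had −0.62 and −0.60. Male-biased genes outside the family had a median of 0.09 over 13 tested (Keg1 −2.32, Serpina1e 0.84, Selenbp2 −1.65). Selenbp2 rested on control replicate 3, at 318 CPM against 53.7 and 45.8 CPM in the other controls, and ranged from −2.07 to −0.17 when single libraries were left out. Female-biased genes had a median of −0.01 over 20 tested (Hao2 −1.51, Fmo1 −1.55). Of these edgeR called 1 lower, against 0.0188% of all genes. DESeq2 called 5 lower, against 2.83% of all genes, and 0 higher, against 2.79%. Without overlap 6 were lower, against 15.0% of all genes, and 1 was higher, against 14.5%. The sum of the female-biased genes, 296 to 308 CPM with AL/NP, lay below the 409 to 457 CPM of the controls. The 20 genes of NRF2 and CCl4 defence had a median of 0.10 (Gsta1 −0.49, Gstm1 −0.57, Cat −0.60), and the 16 tested enzymes of arachidonic acid and retinoid metabolism one of 0.00 (Aldh1a2 0.94, Cyp26b1 −1.63). Cyp26b1 rested on control replicate 1, at 19.5 CPM against 3.67 and 3.94 CPM in the other controls, and ranged from −2.02 to −0.38 when single libraries were left out. None of the genes named in this paragraph passed the edgeR test.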
